A study of Rattus norvegicus with 6 samples.

Results

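The genes described are 10 chemokines that atrial fibroblasts can make, chosen by name from the 40154 genes of the count table. They were divided into 4 interferon-inducible chemokines (Cxcl9, Cxcl10, Cxcl11 and Ccl5) and 6 others (Ccl2, Ccl7, Cxcl1, Cxcl12, Cxcl16 and Cx3cl1). Primary fibroblasts were taken from hearts of Sprague-Dawley rats 1 to 3 days old by their adhesion during 1.5 h of preplating, and GEO's labels give atrial muscle as their source. Cells were transfected with si-NC, the control siRNA, or with si-GPD1L, an siRNA against the mRNA of glycerol-3-phosphate dehydrogenase 1-like, and were sequenced 24 h later as 3 libraries per group. All 6 libraries carry the treatment label "Atrial differentiation" and all received an siRNA, with no untransfected library among the samples analysed. It is not stated whether the digits of si-GPD1L number repeats of 1 siRNA or different siRNAs, or whether the libraries came from separate cultures, so that p-values measure the spread between these libraries, which may be technical.

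Chemokines are small secreted proteins that steer leukocytes along a concentration gradient by binding G protein-coupled receptors. They are grouped as CC, CXC and CX3C by the spacing of their first cysteines. Cxcl9, Cxcl10 and Cxcl11 are the 3 ligands of the receptor Cxcr3 and attract activated T cells and NK cells, and Ccl5 attracts T cells and monocytes. Ccl2 and Ccl7 attract monocytes through Ccr2, and Cxcl1 attracts neutrophils. Cxcl12 is made steadily by mesenchymal cells and holds cells that carry Cxcr4. Cxcl16 and Cx3cl1 are made as membrane-anchored proteins from which proteases release a soluble chemokine. In the heart, fibroblasts are known as a source of chemokines that draw monocytes into injured muscle.

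The libraries held between 16892255 and 20149732 reads assigned to genes. Gpd1l, the gene that si-GPD1L targets, had 262, 332 and 313 normalized counts in si-NC and 220, 208 and 302.5 in si-GPD1L. The means were 303 ± 36.3 and 244 ± 51.3 (SD, n = 3), and the difference did not pass the test in the edgeR quasi-likelihood fit across genes (log2 fold change -0.31, adjusted p = 0.234) or in a two-sided exact permutation test (p = 0.20, where 0.10 is the smallest that 3 against 3 libraries allow). Directions below therefore follow the labels. The cell type label was checked with marker genes. The 10 fibroblast markers summed to between 1216179 and 1529828 normalized counts in the si-NC libraries and between 1422926 and 1516648 in the si-GPD1L libraries. The 8 cardiomyocyte markers summed to between 30985 and 33113 in si-NC and to lower values, between 27169 and 29668, in si-GPD1L. Of the 8, 0 had an adjusted p under 0.05 in the quasi-likelihood fit, DESeq2 or the exact test. An unadjusted p under 0.05 was found for 3, beside 22.4% of all genes tested. The 10 macrophage markers summed to between 2551 and 3718 over the 6 libraries. The 8 smooth muscle and pericyte markers summed to between 13596 and 16375 in si-NC and between 14288 and 15829 in si-GPD1L. Of these 8, Cspg4, a proteoglycan of pericytes, rose (log2 fold change 0.80, adjusted p = 0.00130) and 0 fell in the quasi-likelihood fit, beside 4.03% and 2.33% of genes. In DESeq2 and in the exact test 2 of the 8 fell, and the list's median was -0.10. The 6 neutrophil markers gave few counts, with sums between 27.7 and 34.9 in si-NC and between 35.9 and 46.4 in si-GPD1L. Of 10 T cell and NK cell markers, 5 had no count in any library, and the whole list summed to between 64.3 and 95.7 normalized counts.

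Cxcl10 rose from nearly no reads to the level of some of the chemokines found in both groups, below Ccl2 and Cxcl16. Cx3cl1 rose by a smaller factor and Cxcl12 fell. Cxcl9, Cxcl11 and Ccl5 had no read in any si-NC library and few in the si-GPD1L libraries, too few to enter the test. Ccl2, Ccl7, Cxcl1 and Cxcl16 did not pass the test. Of the 10 chemokines, 7 had enough counts to be tested. At an adjusted p under 0.05 with a log2 fold change beyond 1 in either direction, 1 of the 7 was higher in si-GPD1L and 0 were lower, beside 1.48% and 0.135% of the 14852 genes tested. At an adjusted p under 0.05 alone, 2 were higher (Cxcl10 and Cx3cl1) and 1 was lower (Cxcl12), beside 4.03% and 2.33% of genes, and DESeq2 and edgeR's exact test gave the same counts. The library ranges of the groups did not overlap for 4 of the 7, beside 29.0% of genes. The median log2 fold change was 0.33 over the 7 and -0.0049 over the genes tested. Cxcl10 passed the filter on low counts only through its si-GPD1L libraries, so these counts and the median describe the genes that could be tested and not the full set of 10. In these bulk libraries, a change in the number of cells of a type and a change in RNA per cell cannot be told apart. Nor do they show which cell type of the culture made a chemokine.

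**Figure D1:**
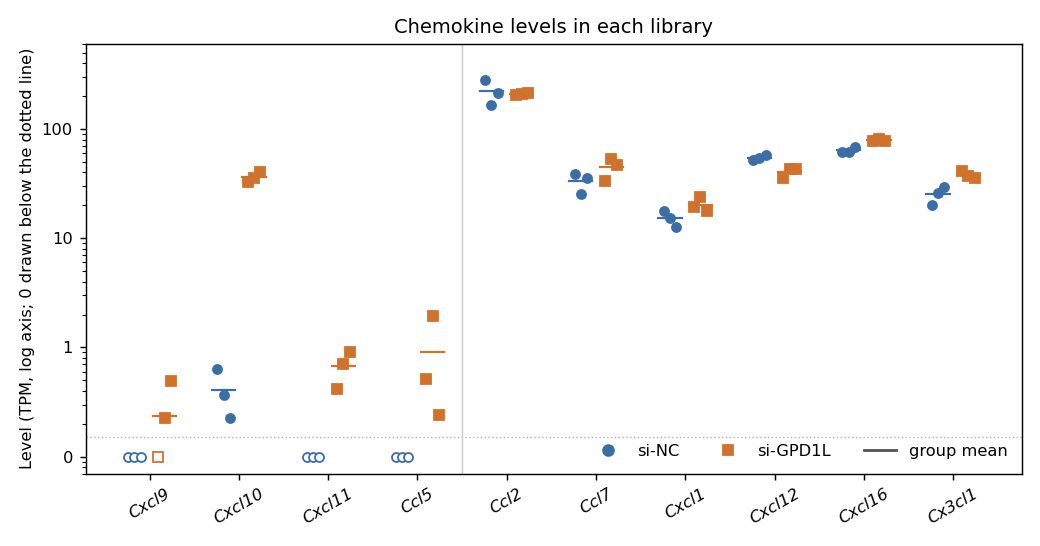
Level of each of the 10 chemokines in each library, in TPM (read counts per gene length, scaled to the same sum in each library) on a log axis, with si-NC as circles, si-GPD1L as squares, horizontal lines at the group means and values of 0 drawn as open symbols below the dotted line. Cxcl10 lies between 0.228 and 0.633 in si-NC and between 33.0 and 40.0 in si-GPD1L, while the si-GPD1L values of Ccl2 lie within the range of its si-NC values.

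Cxcl9, Cxcl10 and Cxcl11 lie side by side on chromosome 14 of the rat genome, all on the plus strand. In the deposited positions, for which the submitters' processing notes name the rn6 build, Cxcl11 covers 17195395 to 17198170, Cxcl10 covers 17210733 to 17212930 and Cxcl9 covers 17228832 to 17233743, a stretch of 38349 bases in all. Their promoters are printed because these neighbours share the Cxcr3 receptor yet differed in the number of reads they gave. The sequences are RefSeq's, on the GRCr8 build, from 250 bases before to 50 bases after the annotated start, 5′ to 3′ on the gene's strand. Capitals mark matches, on either strand, to GAAANNGAA (the core of the interferon-stimulated response element, a target of factors of the interferon response), TTCNNNGAA (a STAT site core) or GGANNTTCC (an NF-kB site core).
Cxcl11, chr14:15973478-15973777, plus strand: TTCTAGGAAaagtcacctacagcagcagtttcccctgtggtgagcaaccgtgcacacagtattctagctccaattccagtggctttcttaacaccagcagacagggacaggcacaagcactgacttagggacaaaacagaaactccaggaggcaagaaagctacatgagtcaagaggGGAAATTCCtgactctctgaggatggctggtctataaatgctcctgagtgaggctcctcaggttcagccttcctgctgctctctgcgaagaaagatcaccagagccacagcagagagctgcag
Cxcl10, chr14:15988816-15989115, plus strand: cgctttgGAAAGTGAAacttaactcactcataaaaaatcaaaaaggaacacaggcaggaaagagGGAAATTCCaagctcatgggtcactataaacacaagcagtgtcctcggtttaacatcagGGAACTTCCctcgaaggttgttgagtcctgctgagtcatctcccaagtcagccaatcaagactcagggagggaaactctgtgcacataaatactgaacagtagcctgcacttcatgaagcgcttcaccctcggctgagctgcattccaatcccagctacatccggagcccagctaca
Cxcl9, chr14:16006916-16007215, plus strand: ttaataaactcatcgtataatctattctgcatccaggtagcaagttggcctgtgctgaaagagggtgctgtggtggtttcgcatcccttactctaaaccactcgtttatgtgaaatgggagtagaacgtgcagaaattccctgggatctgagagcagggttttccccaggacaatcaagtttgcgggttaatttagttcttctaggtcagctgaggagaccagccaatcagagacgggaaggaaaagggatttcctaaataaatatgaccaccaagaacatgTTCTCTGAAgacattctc

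In the Cxcl10 window, GAAANNGAA matched at positions -243 to -235, counted from 0 at the annotated start, and GGANNTTCC matched at -186 to -178 and again at -127 to -119. The Cxcl11 window held TTCNNNGAA at -250 to -242 and GGANNTTCC at -73 to -65. The Cxcl9 window held TTCNNNGAA at 32 to 40, downstream of the start. Promoters of 8 of the 10 chemokines were matched by symbol in the RefSeq table, with Ccl2 and Ccl5 unmatched. Over these 8, GAAANNGAA was found in 1 (Cxcl10), TTCNNNGAA in 3 (Cxcl9, Cxcl11 and Ccl7) and GGANNTTCC in 4 (Cxcl10, Cxcl11, Ccl7 and Cxcl1). Over all 33469 promoters of the table the shares were 9.71%, 8.87% and 4.09%. No match overlapped a match to another of the 3 motifs. The windows of Cxcl12, Cxcl16 and Cx3cl1 held none of the 3, which says only that these letters are not in these bases. A match is a description of the sequence and not of binding.

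**Figure D2:**
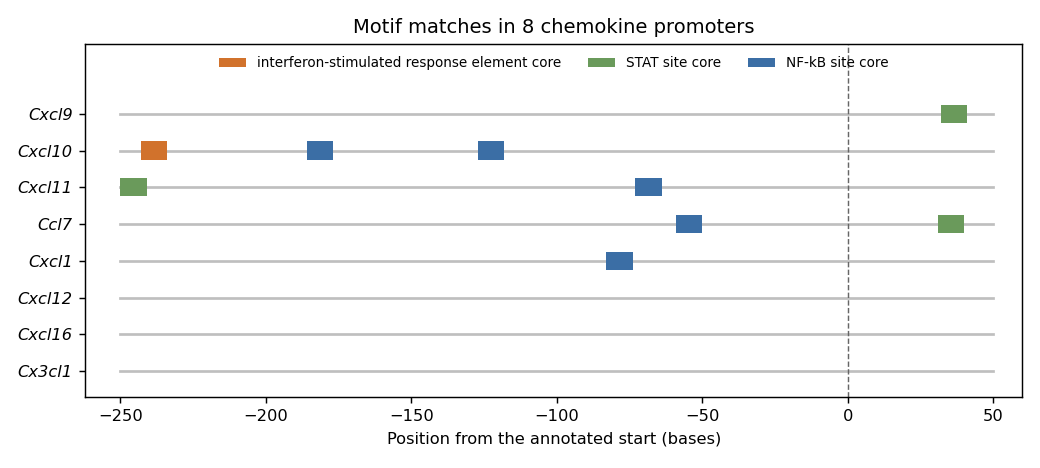
Positions of the matches to the 3 motifs in the 8 chemokine promoters found in the RefSeq table, in bases from the annotated start (dashed line), with grey lines for the bases searched. The Cxcl10 window holds 3 matches, and those of Cxcl12, Cxcl16 and Cx3cl1 hold none.

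Cxcl10, the interferon-inducible attractant of T cells, had 6, 3 and 2 reads in si-NC replicates 1, 2 and 3, and 255, 327 and 335 reads in the si-GPD1L libraries. After scaling for library size these were 5.93, 3.17 and 1.95 against 278, 297 and 334 normalized counts. Every si-GPD1L library was far above every si-NC library, and the si-GPD1L values lay close together. The means were 3.69 ± 2.04 and 303 ± 28.7 (SD, n = 3), a log2 fold change of 6.31 (SE 0.25, 95% interval 5.78 to 6.85, edgeR adjusted p = 1.94e-09). As a fold this is 79.5, with an interval from 55.0 to 115. The SE and the interval were derived from the F statistic of the test. For a change this large they are narrower than the counting error of the 2 to 6 control reads per library allows. The fold is therefore less certain than they state. When 1 library at a time was left out, the log2 fold change lay between 6.00 and 6.83, and the call held without each library.

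Cxcl11, with the same receptor, had no read in the 3 si-NC libraries and 3, 6 and 7 reads in the si-GPD1L libraries. A count of 0 over the si-NC group allows up to 3 reads, for counting error only. The normalized si-GPD1L sum of Cxcl11 was 5.20 times that group floor, with the si-GPD1L reads taken as observed. Cxcl9 had no read in si-NC and 0, 1 and 2 reads in si-GPD1L, a total at the floor, and no fold is given. Ccl5, the CC chemokine of this group, had no read in si-NC and 2, 9 and 1 reads in si-GPD1L. Its normalized si-GPD1L sum, taken as observed, was 3.76 times the group floor. Most of the Ccl5 reads came from si-GPD1L replicate 2. These 3 genes did not pass the filter on low counts. In a fit without that filter, edgeR gave an adjusted p of 0.0181 for Cxcl11, 0.0591 for Ccl5 and 0.501 for Cxcl9. At like fold changes, adjusted p-values differed from the main fit, with 1.00e-07 against 0.00280 for Cxcl12 and 0.154 against 0.0992 for Cxcl16. The p-values of these fits are therefore not on one scale. Ccl5 lies apart from the other 3, on chromosome 10 at 70739764 to 70744303 on the minus strand.

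Cxcl10 and Cxcl11 lie within the span of Art3, a gene of the opposite strand. Art3 had 279 normalized counts in si-NC and 251 in si-GPD1L (log2 fold change -0.16, adjusted p = 0.565). Whether the counting used strand is not given in the sources used here. Within 250000 bases of Cxcl10 lay 15 other genes, of which 9 were tested. Of these 9, 0 had an adjusted p under 0.05 in the quasi-likelihood fit, DESeq2 or edgeR's exact test, and 2 had an unadjusted p under 0.05, a share like the 22.4% of all genes tested. Around the other chemokines, Cxcl10 itself was left out of the neighbours with an adjusted p under 0.05. Near Cx3cl1, with 11 tested, these were Nlrc5 (log2 fold change 3.62) and Fam192a (0.35). Nlrc5 lay 249520 bases away, at the edge of the window, and Fam192a 172196 bases away. Nlrc5 had few counts in si-NC, with normalized means of 10.4 in si-NC and 129 in si-GPD1L. Near Ccl5, with 8 tested, those with an adjusted p under 0.05 were Mmp28 (0.90) and LOC689039 (0.79). The exact test gave 3 higher there, and 5 of the 8 had an unadjusted p under 0.05. Near Ccl2 and near Ccl7, with 3 tested each, the gene at an adjusted p under 0.05 was Asic2 (1.78). Near Cxcl16, with 25 tested, it was Rnasek (-0.45), while the exact test gave 2 lower and 3 had an unadjusted p under 0.05. Over all genes tested, 4.03% were higher and 2.33% lower at an adjusted p under 0.05. Near Cxcl1, 0 of 4 genes tested had an adjusted p under 0.05 in edgeR or DESeq2 and 0 an unadjusted p under 0.05, and no gene near Cxcl12 was tested.

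Cxcl12, the mesenchymal chemokine that binds Cxcr4, fell in si-GPD1L. It had 2970, 2848 and 3024 normalized counts in si-NC and 1817, 2186 and 2210 in si-GPD1L. All si-GPD1L libraries were below all si-NC libraries, with replicate 1 the lowest. The means were 2947 ± 90.3 and 2071 ± 221 (SD, n = 3), a log2 fold change of -0.51 (SE 0.083, 95% interval -0.69 to -0.33, adjusted p = 0.00280), which as a fold is 0.703 (0.621 to 0.796). The fold change lay between -0.56 and -0.43 on the log2 scale when each library was left out in turn, and the adjusted p reached at most 0.0172. The gene lies on chromosome 4 at 149261044 to 149273891, plus strand. The transcript table lists 3 Cxcl12 transcripts, of 2850, 5423 and 1845 bases, and their si-GPD1L means were 74.3%, 73.5% and 67.1% of their si-NC means. Reads shared between these transcripts were counted for more than 1 of them, so the 3 values are not independent.

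At an adjusted p under 0.05, where 2.33% of genes tested were lower, 3 of the 10 fibroblast markers fell in si-GPD1L, as Cxcl12 did. They were the matrix proteoglycans Dcn (log2 fold change -0.66, adjusted p = 0.0129) and Lum (-0.77, adjusted p = 0.00580) and the cell surface protease Fap (-0.82, adjusted p = 7.53e-05). The Dcn call was lost without si-GPD1L replicate 1 (adjusted p = 0.0564) and without si-GPD1L replicate 2 (0.0842). None of the 10 was higher at an adjusted p under 0.05, and the list's median log2 fold change was -0.19. Col1a1 (0.25, adjusted p = 0.219) and Col1a2 (0.21, adjusted p = 0.137) did not pass the test but had si-GPD1L libraries that were all above the si-NC libraries. The summed level of the list was mostly that of Col1a1 and Col3a1 (log2 fold change -0.26, adjusted p = 0.156). The part of these genes in the Cxcl12 result was not tested.

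Cx3cl1, the membrane-anchored CX3C chemokine, rose in si-GPD1L. It had 616, 744 and 825 normalized counts in si-NC and 1134, 1011 and 967 in si-GPD1L. The lowest si-GPD1L library was above the highest si-NC library. The means were 728 ± 105 and 1037 ± 86.5 (SD, n = 3), a log2 fold change of 0.51 (SE 0.10, 95% interval 0.28 to 0.74, adjusted p = 0.0128), or 1.42-fold (1.22 to 1.67). The call was lost without si-GPD1L replicate 1 (log2 fold change 0.44, adjusted p = 0.0964) and without si-GPD1L replicate 2 (0.53, adjusted p = 0.0651). Its transcripts of 3057 and 3717 bases, which share reads, stood at 143% and 142.5% of their si-NC means. Cx3cl1 lies on chromosome 19 at 10644267 to 10654861, minus strand.

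Endothelial cells are another known source of Cx3cl1, and some of their markers were higher in si-GPD1L. The 10 endothelial markers summed to between 1932 and 2385 normalized counts in si-NC and between 2627 and 2749 in si-GPD1L. Of the 9 tested, 4 rose at an adjusted p under 0.05, beside 4.03% of genes. These 4 were Plvap (log2 fold change 1.44, adjusted p = 0.000351), Cdh5 (1.07, 0.00337), Pecam1 (0.90, 0.0249) and Tie1 (0.56, 0.0395), while Kdr, Flt1, Tek, Vwf and Egfl7 did not pass the test. The list's median was 0.56, and no endothelial marker fell. Plvap and Cdh5 kept an adjusted p under 0.05 in each alternative, with a log2 fold change of 0.93 as the lowest for Cdh5. The Pecam1 call was lost without si-NC replicate 2 (adjusted p = 0.0858) and without si-GPD1L replicates 2 (0.152) or 3 (0.0780), and the Tie1 call without any 1 of si-NC replicate 2 (0.109) or si-GPD1L replicates 1 (0.0923), 2 (0.211) or 3 (0.0780), and both were lost with transcript counts summed per gene. The defining markers were at low levels, with Pecam1 at 40.8 and 76.3 normalized counts and Cdh5 at 76.0 and 159 as the si-NC and si-GPD1L means. The part of endothelial cells in the Cx3cl1 result was not tested.

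**Figure D3:**
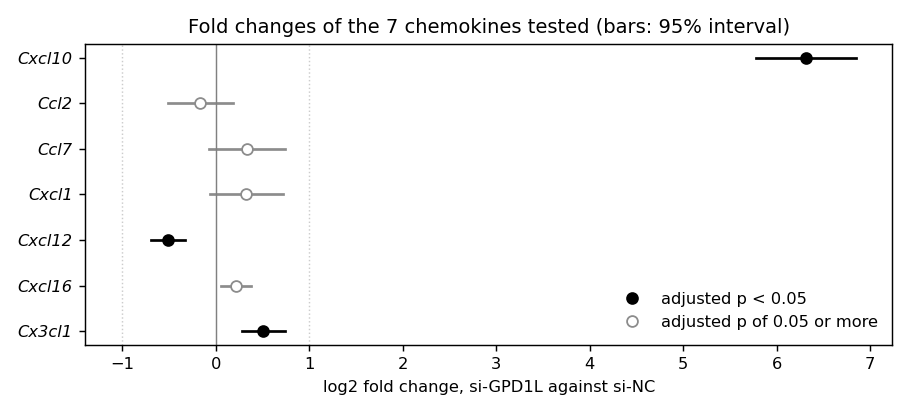
Log2 fold change of si-GPD1L against si-NC for the 7 chemokines tested, with bars for the 95% interval, filled points for an adjusted p under 0.05 and dotted lines at -1 and 1. Cxcl10 stands at 6.31, Cxcl12 and Cx3cl1 lie at -0.51 and 0.51 with intervals that do not reach 0, and the intervals of Ccl2, Ccl7 and Cxcl1 include 0. The bar of Cxcl10 is narrower than the counting error of its few si-NC reads allows.

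Cxcl16, the other membrane-anchored chemokine, had 867, 807 and 890 normalized counts in si-NC and 976, 1024 and 979 in si-GPD1L. The groups did not overlap, but the difference did not pass the test after adjustment. The means were 855 ± 42.7 and 993 ± 27.1 (SD, n = 3), a log2 fold change of 0.22 (SE 0.072, 95% interval 0.059 to 0.37, adjusted p = 0.0992, unadjusted p = 0.0111 in edgeR). Without si-NC replicate 1 the adjusted p was 0.0417 at a log2 fold change of 0.23. Cxcl16 lies on chromosome 10 at 57060005 to 57064600, minus strand, and overlaps Zmynd15 on the opposite strand, which had 57.1 and 63.2 normalized counts as group means (log2 fold change 0.15, adjusted p = 0.771).

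Ccl2, the main attractant of monocytes among these genes, had 1816, 999 and 1251 normalized counts in si-NC and 1187, 1207 and 1239 in si-GPD1L. All 3 si-GPD1L libraries lay within the wide range of the si-NC libraries, where replicate 1 was the highest. The means were 1356 ± 419 and 1211 ± 25.9 (SD, n = 3), with a log2 fold change of -0.16 (SE 0.16, 95% interval -0.51 to 0.18, adjusted p = 0.593). Without si-NC replicate 1 the difference turned to 0.10 (adjusted p = 0.469), so its direction rested on that library. The interval leaves room for a change in either direction.

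Ccl7, which lies next to Ccl2 on chromosome 10 and also attracts monocytes, had 259, 157 and 218 normalized counts in si-NC and 202, 317 and 278 in si-GPD1L. The groups overlapped, and in si-NC the highest and the lowest library were the same as for Ccl2. The means were 211 ± 51.5 and 265 ± 58.7 (SD, n = 3), with a log2 fold change of 0.33 (SE 0.19, 95% interval -0.07 to 0.74, adjusted p = 0.322). Ccl2 covers 69412065 to 69413863 and Ccl7 covers 69423083 to 69424933, both on the plus strand and together within 12869 bases.

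Cxcl1, the neutrophil attractant, had 136, 110 and 88.8 normalized counts in si-NC and 133, 165 and 122 in si-GPD1L. The groups overlapped, as the highest si-NC library was above 2 of the si-GPD1L libraries. The means were 112 ± 23.9 and 140 (139.8) ± 22.2 (SD, n = 3), with a log2 fold change of 0.33 (SE 0.18, 95% interval -0.06 to 0.72, adjusted p = 0.312). It lies on chromosome 14 at 18743678 to 18745457, minus strand. When each library was left out in turn, the log2 fold change ranged from 0.16 to 0.51 for Ccl7 and from 0.18 to 0.50 for Cxcl1, and neither passed the test in any of these fits.

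To compare levels between genes, counts were divided by gene length and given in TPM. In si-NC, Ccl2 was the highest chemokine of the 10 with a mean of 220 ± 57.7 TPM (SD, n = 3), followed by Cxcl16 at 64.1 ± 4.34, Cxcl12 at 54.5 ± 3.07, Ccl7 at 33.3 ± 7.08, Cx3cl1 at 25.2 ± 4.74, Cxcl1 at 15.2 ± 2.54 and Cxcl10 at 0.409 ± 0.206. Only Ccl7 and Cx3cl1 overlapped among neighbours in this order, and Cxcl9, Cxcl11 and Ccl5 were at 0. In si-GPD1L, Ccl2 at 211 ± 5.34 TPM and Cxcl16 at 78.9 ± 2.53 were again the highest. They were followed by Ccl7 at 44.6 ± 10.1, Cxcl12 at 40.6 ± 4.54, Cx3cl1 at 37.8 ± 2.95 and Cxcl10 at 36.3 ± 3.55, and within these 4 each overlapped with the next. Cxcl1 at 20.3 ± 3.29 TPM lay below Cxcl10 without overlap. The lowest were Ccl5 at 0.904 ± 0.924, Cxcl11 at 0.674 ± 0.243 and Cxcl9 at 0.238 ± 0.245 TPM, with overlapping ranges. By level, Cxcl10 in si-GPD1L could thus not be separated from Cx3cl1, whereas in si-NC it lay below the 6 chemokines outside the interferon-inducible group. The order of the genes by group mean was the same when counts per kilobase with TMM-scaled library sizes replaced TPM. The labels describe libraries captured by the polyA tail, and whether reads covered long and short transcripts evenly was not tested.

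As a share of the summed TPM of 34 chemokine ligands, Cxcl10 made up 0.117%, 0.0912% and 0.0468% in si-NC and 6.51%, 6.26% and 7.25% in si-GPD1L. Ccl2 took the highest share in every library, at 52.2%, 41.7% and 43.6% in si-NC and 40.4%, 36.9% and 39.0% in si-GPD1L. Cxcl12 took 9.63%, 13.4% and 11.9% against 6.97%, 7.54% and 7.85%. The groups did not overlap for these 3 shares, while the shares of Ccl7, Cxcl1, Cxcl16 and Cx3cl1 overlapped. The shares of Cxcl11 and Ccl5, at 0 in si-NC, did not overlap either but rested on few reads. The level of Ccl2 itself did not pass the test (edgeR adjusted p = 0.593). A share also falls when another ligand rises, and the shares were not tested. The sum itself was 539, 400.4 and 487 TPM in si-NC and 507, 571 and 553 in si-GPD1L, with overlap between the groups.

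**Figure D4:**
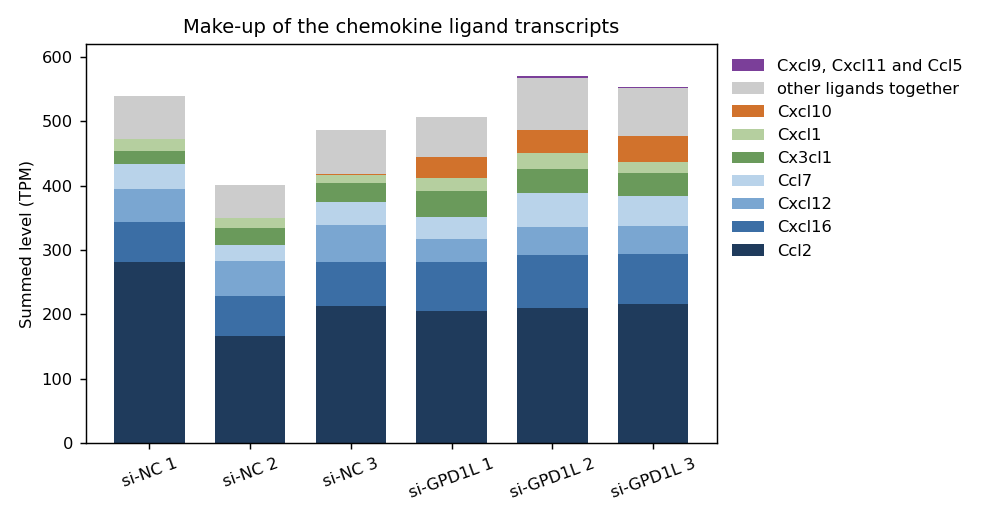
Summed level of 34 chemokine ligands in each library in TPM, divided by gene as the colours show. Ccl2 is the tallest segment in every bar, and the Cxcl10 segment holds 6.26% to 7.25% of the bar in the si-GPD1L libraries and at most 0.117% in the si-NC libraries.

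The other genes of the chemokine system were read from the same fit, where 4.03% of genes were higher and 2.33% lower at an adjusted p under 0.05. Of the other 24 chemokine ligands listed, 5 had enough counts to be tested and 3 had no count in any library. Cxcl17, a CXC chemokine of mucosal tissue, rose from 6, 2 and 5 reads in si-NC to 16, 24 and 22 reads in si-GPD1L. Its normalized means were 4.31 ± 1.97 and 20.4 ± 2.57 (SD, n = 3), a log2 fold change of 2.20 (SE 0.43, adjusted p = 0.00975). Like Cxcl10, it passed the filter on low counts only through its si-GPD1L libraries. The call was lost without si-NC replicate 2 (adjusted p = 0.0528) and without si-GPD1L replicate 2 (0.0617). The monocyte attractants Ccl3 (log2 fold change 1.10, adjusted p = 0.0762) and Ccl12 (0.52, 0.243), Ccl27 (0.29, 0.835) and the platelet factor Pf4 (-0.20, 0.573) did not pass the test. The median of the 5, Cxcl17 included, was 0.52 on the log2 scale.

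No chemokine receptor passed the test. Of 22 receptors listed, 21 were in the table and 6 were tested, with 0 at an adjusted p under 0.05 in edgeR's quasi-likelihood fit, its exact test or DESeq2, and 0 at an unadjusted p under 0.05. Ackr3, a scavenger of Cxcl12, had 231 normalized counts in si-NC and 240.0 in si-GPD1L as means (log2 fold change 0.057). Ackr4, a scavenger of other chemokines, had 287 in both groups. The remaining log2 fold changes were -0.0057 for Cxcr4, the signalling receptor of Cxcl12, -0.11 for Cx3cr1, the receptor of Cx3cl1, 0.14 for Ccr1 and 0.52 for Ccrl2, and the median of the 6 was 0.028. Cxcr3, looked up after the values of its ligands were seen, had 0, 0 and 1 reads in si-NC and 0, 0 and 1 in si-GPD1L.

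Of 7 proteases that release or trim chemokines, 6 were tested. The membrane matrix metalloprotease Mmp14 fell from 27420 ± 1422 to 22299 ± 953 normalized counts (SD, n = 3, log2 fold change -0.30, SE 0.077, adjusted p = 0.0410), and no other protease of the list passed the test. The Mmp14 call held without si-NC replicate 1 but was lost without si-NC replicates 2 (adjusted p = 0.132) or 3 (0.0547) and without si-GPD1L replicates 1 (0.186), 2 (0.228) or 3 (0.0811). The sheddases of Cx3cl1 and Cxcl16, Adam10 and Adam17, had log2 fold changes of -0.049 and 0.083. Dpp4, which trims Cxcl9, Cxcl10, Cxcl11 and Cxcl12, had -0.98 at an adjusted p of 0.139. The median of the 6 was -0.05.

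Of 13 interferon signalling genes, all tested, 5 rose at an adjusted p under 0.05 and 0 fell, beside 4.03% and 2.33% of genes tested. Of the 5, 3 also passed the fold threshold, beside 1.48% of genes tested. Irf7, a transcription factor of the interferon response, rose from 69.6 ± 9.25 to 4083 ± 784 normalized counts (SD, n = 3, log2 fold change 5.87, SE 0.16, adjusted p = 1.14e-10). Stat2 and Irf9, subunits of a factor that binds the interferon-stimulated response element, rose by 2.18 and 1.81 on the log2 scale. Irf1 (0.60, adjusted p = 0.00201) and the receptor chain Ifngr1 (0.32, adjusted p = 0.0113) passed the test below the fold threshold. The Ifngr1 call was lost without si-GPD1L replicate 1 (adjusted p = 0.0745) and without si-GPD1L replicate 2 (0.0987), while the calls of the other 4 held in each alternative. The list's median was 0.15. Like the other lists, it was chosen with earlier results of these data known, so its counts only describe it. Of 13 NF-kB genes, all tested, Tnfaip3, an NF-kB target that dampens the pathway, rose (0.56, SE 0.15, adjusted p = 0.0418) and 0 fell, again beside 4.03% and 2.33% of genes. The Tnfaip3 call was lost without si-NC replicate 2 (adjusted p = 0.131), without si-GPD1L replicates 1 (0.154) or 2 (0.227), with transcript counts summed per gene (0.0780) and with the replicate number as a block (0.0616). The median of that list was 0.14, and 5 of the 13 had an unadjusted p under 0.05, beside 22.4% of all genes tested.

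**Figure D5:**
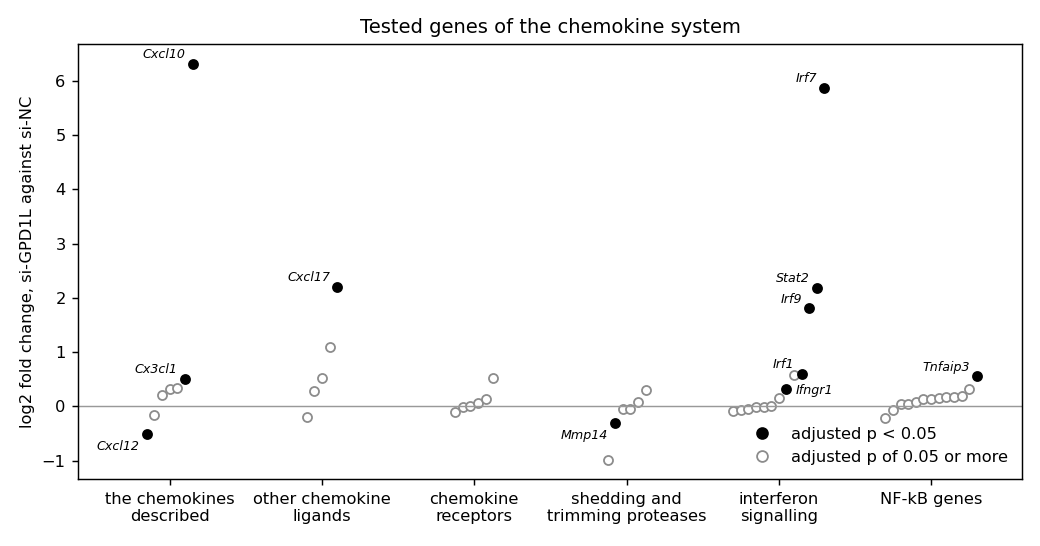
Log2 fold change of si-GPD1L against si-NC for each tested gene of 6 lists of the chemokine system, 1 point per gene, with filled and named points for an adjusted p under 0.05. Cxcl10 at 6.31 and Irf7 at 5.87 stand above the other points, and no point of the receptors is filled.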

How the data were processed

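PolyA-captured RNA from 6 libraries was sequenced on an Illumina platform, and the sample titles gave the groups and the replicate numbers. The authors deposited whole-number read counts per gene and per transcript, without normalization, together with TPM values per gene, which equal the counts per gene length after scaling to the same total in each library. The submitters' processing notes name bcl2fastq, HISAT2 2.1.0, HTSeq 0.12.4 and the build rn6, without their order, and whether counting used strand is not given in the sources used here. The authors' deposited comparison, GO and KEGG tables hold their own findings and were not used. Gene counts were tested with edgeR 4.0.16 (R 4.3.3) by the quasi-likelihood F test, after filterByExpr by group and TMM normalization, with Benjamini-Hochberg adjustment over the 14852 genes that passed. A gene was called at an adjusted p under 0.05 and a log2 fold change beyond 1 in either direction, and calls at the adjusted p alone are given too. Where the call of a single gene is said to hold or to be lost, the adjusted p alone is meant. Normalized counts are counts divided by the TMM-scaled library size relative to the mean. Gpd1l was also tested with an exact permutation test (scipy 1.17.1). Library totals lay between 16892255 and 20149732, and libraries of the same group differed beyond sampling noise in each pair. The 10 chemokines and all gene lists were chosen with earlier results of these data known. The genes named were the 10 chemokines, Gpd1l, genes of each pathway list at an adjusted p under 0.05 (at most 6), all tested ligands and receptors, markers at an adjusted p under 0.05, and genes overlapping a chemokine or within 250000 bases of one at an adjusted p under 0.05. Adam10, Adam17, Dpp4, Cxcr3, those neighbours and the other markers printed were added after their values were seen. Promoters came from RefSeq (GRCr8). Protein sequences were not used here, and 2 genes of the pathway lists are not reported here. Alternatives were DESeq2 1.42.0, edgeR's exact test, other size factors and filters, transcript counts summed per gene, a replicate block and each library left out. The scripts were tested on simulated data.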

Additional observations from a re-analysis of the deposited data

How the results depend on the processing

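Cxcl10 and Cxcl12 kept their direction and their side of the threshold in all 13 and all 14 alternatives that could be fitted, Cx3cl1 kept its direction in 14 and its side in 12, and the exceptions for Ccl2 (0.10 without si-NC replicate 1, and -0.34 to 0.10 over the libraries left out), Cxcl16 and Cx3cl1 are given with those genes. Of the 10 chemokines, 1 was called higher and 0 lower. The counts were 2 and 0 without a filter on low counts, where Cxcl11 was added, 0 and 0 with at least 10 counts in every library, which removes Cxcl10 by construction, and 2 and 1 at the adjusted p alone. P-values of the fit without a filter are not on the scale of the main fit. Of the other ligands, 1 was called higher, against 2 with edgeR's exact test, 3 without a filter, 0 with at least 10 counts in every library and 0 to 2 when each library was left out. At the adjusted p alone, 1 protease was lower and 1 NF-kB gene was higher, against 0 each with the fold threshold, and 5 interferon signalling genes were higher, against 3. Over all genes, 220 were called higher and 20 lower, and the adjusted p alone gave 599 and 346. The lower calls numbered 38 with the exact test, 40 without a filter, 10 with at least 10 counts in every library, 11 with transcript counts summed per gene and 6 to 28 when each library was left out, the lowest of these being 6 and 8, for si-GPD1L replicates 1 and 2 left out. Deviations of libraries of the same number in both groups correlated weakly across genes (-0.0144, -0.0060 and 0.0435). Those of unlike numbers lay between -0.0438 and 0.0475. These values cannot show whether libraries of the same number came from a shared culture. With the replicate number as a block, 206 genes were called higher and 17 lower, and the chemokine counts were 1 and 0. Among the chemokines and the genes of the lists, Tnfaip3 was the only one whose call was lost in that fit. The named neighbours on the chromosome were not read from it. Not every library correlated best with its own number. Depth limits Cxcl9, Cxcl11 and Ccl5, whose si-NC totals of 0 allow up to 3 counts.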

Other observations

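Cxcl13, an attractant of B cells, was singled out after its values were seen. It had 3, 0 and 4 reads in the si-NC libraries and 8, 15 and 15 reads in the si-GPD1L libraries, and it did not pass the filter on low counts.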
